A study of Mus musculus with 6 samples.

Results

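The 10 genes described here, En1, En2, Pax2, Pax5, Pax8, Gbx2, Atoh1, Ptf1a, Barhl1 and Zic1, encode transcription factors that pattern the midbrain, the hindbrain and the cerebellum. They were taken by gene symbol from a table of read counts for 53801 genes, and all 10 passed the filter of 10 counts summed over the embryos. Polyadenylated RNA had been sequenced from the whole brains of 6 C57BL/6 mouse embryos at E16.5, 3 Bahd1-KO (Bahd1-/-) and 3 Bahd1-WT (Bahd1+/+), bred from heterozygous parents with no other allele or treatment stated. BAHD1 is a scaffold protein that helps to form repressive chromatin, and the comparison asked whether its constitutive loss altered expression of these genes before birth. The brains were used whole, so that each value averages over forebrain, midbrain, hindbrain and any adhering tissue.

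The midbrain-hindbrain boundary, or isthmus, is a signalling centre of the early neural tube. It lies where the Otx2-positive midbrain meets the Gbx2-positive hindbrain, and it secretes FGF8 and WNT1, while Pax2, Pax5, Pax8, En1 and En2 are expressed across the boundary and maintain the territory. The cerebellum grows from the hindbrain side of this boundary. Its glutamatergic neurons arise from the Atoh1-positive rhombic lip, with Barhl1 and Zic1 expressed in the granule cell lineage, and its GABAergic neurons arise from the Ptf1a-positive ventricular zone, where Pax2 marks future interneurons. None of these genes is confined to this region. Zic1 is also active in dorsal forebrain and meninges, Gbx2 in the thalamus and ventral forebrain, and Pax8 in thyroid, kidney and ear.

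In GRCm38 the genes lie on 7 chromosomes, and counts were summed over all their exons. En1 lies at chr1:120602418-120607992 (+), En2 at chr5:28165694-28172166 (+), Pax2 at chr19:44756045-44837871 (+), Pax5 at chr4:44524757-44710487 (-) and Pax8 at chr2:24420560-24475599 (-). Gbx2 lies at chr1:89927956-89931179 (-), Atoh1 at chr6:64729125-64731245 (+), Ptf1a at chr2:19445663-19447501 (+), Barhl1 at chr2:28907679-28916668 (-) and Zic1 at chr9:91358058-91365810 (-). All are protein-coding, and Atoh1 has a single exon.

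The sequences upstream of 4 of the genes are shown because their levels separated in the same embryo, with En1, Pax5 and Atoh1 low and Zic1 within the Bahd1-WT range in Bahd1-KO replicate 1. They were read from RefSeq promoters of GRCm38.p6 in the direction of transcription, with CG dinucleotides in capitals. Each ends at the base before the start of that promoter or before the first base of any annotated exon. For Pax5 the promoter start lies upstream of the gene start given above. The stretches are chr1:120602237-120602417 on the forward strand for En1, chr4:44710695-44710944 on the reverse strand for Pax5, chr6:64728875-64729124 on the forward strand for Atoh1, and chr9:91365811-91366018 on the reverse strand for Zic1.
En1: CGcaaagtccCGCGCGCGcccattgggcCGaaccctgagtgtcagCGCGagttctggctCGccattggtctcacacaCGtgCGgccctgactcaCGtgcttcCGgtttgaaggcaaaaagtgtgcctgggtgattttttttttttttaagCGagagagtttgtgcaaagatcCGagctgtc
Pax5: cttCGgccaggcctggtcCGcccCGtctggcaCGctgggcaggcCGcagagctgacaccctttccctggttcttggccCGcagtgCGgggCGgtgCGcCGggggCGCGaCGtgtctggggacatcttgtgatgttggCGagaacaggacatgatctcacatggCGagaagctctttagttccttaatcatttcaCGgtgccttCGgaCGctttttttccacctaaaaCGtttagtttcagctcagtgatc
Atoh1: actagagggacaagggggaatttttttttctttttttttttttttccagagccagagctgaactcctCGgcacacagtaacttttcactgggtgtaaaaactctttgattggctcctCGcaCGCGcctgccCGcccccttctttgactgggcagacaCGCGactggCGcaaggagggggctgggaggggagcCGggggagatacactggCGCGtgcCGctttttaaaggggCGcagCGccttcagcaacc
Zic1: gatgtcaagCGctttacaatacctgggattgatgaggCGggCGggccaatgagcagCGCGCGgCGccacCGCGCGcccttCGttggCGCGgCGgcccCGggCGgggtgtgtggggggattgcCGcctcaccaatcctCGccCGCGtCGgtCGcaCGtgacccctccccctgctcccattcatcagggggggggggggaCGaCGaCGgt

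The printed stretches held 15 CG in 181 bases for En1, 19 in 250 for Pax5, 14 in 250 for Atoh1 and 26 in 208 for Zic1. Full windows of 300 bases, 250 of them before the start, were matched for 9 of the 10 genes, in 12 windows. They held 7 to 31 CG each, and 10 of the 12 lay above the median of 7 over all 32817 windows. An E-box core, CANNTG on either strand, was present in 9 of the 12 windows, against 72.3% of all windows, and the homeodomain core TAATTA in 1, a Barhl1 window, against 5.30%. Gbx2 held 27 CG and 4 E-box cores and Zic1 held 31 CG and 1 E-box core. The windows of En1, Pax5, Pax8, Atoh1, Ptf1a and Barhl1 held 7 to 23 CG, and those of Pax2 7, 23 and 30. These matches describe the letters of the windows only.

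Bahd1 transcripts followed the labels, with 2, 10 and 6 counts across Bahd1-KO and 1971, 3102 and 3470 across Bahd1-WT embryos. Libraries held 61.7 to 91.8 in units of 1e6 counts, so that 3 counts, used below as the floor of detection, correspond to 0.0327 to 0.0486 counts per 1e6 counts (CPM). Bahd1-KO replicate 3 stood apart from the other 5 embryos. The summed level of 10 neuronal genes was 1741 CPM in this embryo, against 9235 to 10880 CPM in the other 5, and 6 lung genes together reached 946 CPM, against 0.211 to 12.4 CPM. Genes of mature brain and myelin summed to 1075 CPM there, against 266, 188 and 125 CPM in Bahd1-WT replicates 1, 2 and 3. The fits are therefore given with and without this embryo, and the part of these other transcripts in its values was not tested.

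In Bahd1-WT embryos the 10 genes covered a wide range of levels. Per kilobase of exon, Zic1 was highest at 40.3 ± 3.79 CPM (SD, n = 3), and no other gene approached it. En1 (4.50 ± 0.708), Gbx2 (3.55 ± 0.276), En2 (3.35 ± 0.898), Barhl1 (3.29 ± 0.941) and Pax5 (2.51 ± 0.695) followed in CPM per kilobase, and each neighbouring pair of these 5 overlapped in range. Atoh1, at 0.493 ± 0.107, and Pax2, at 0.355 ± 0.0728, also overlapped, and lay above Pax8 at 0.158 ± 0.0348 and Ptf1a at 0.0613 ± 0.0319 CPM per kilobase. The coefficient of variation over the Bahd1-WT embryos was 7.79 to 28.6% for the 8 genes of at least 1 CPM, with a median of 21.1%, close to the 18.1% of all 14469 genes at that level.

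**Figure D1:**
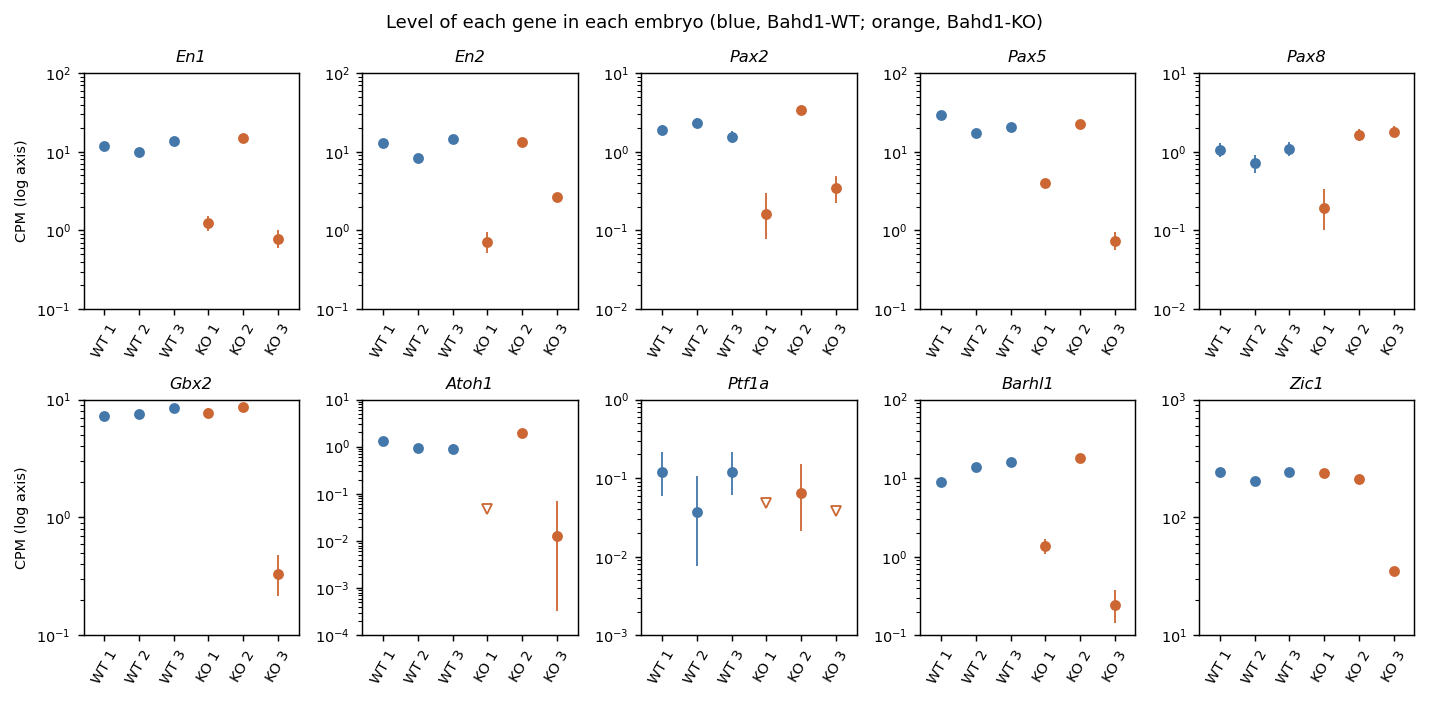
Level of the 10 genes in each embryo, in CPM on log axes that differ between panels. Points are single embryos, bars are exact 95% Poisson intervals that cover counting error only, and open triangles mark embryos with 0 counts, drawn at the floor of 3 counts. En1, En2, Pax2, Pax5, Atoh1 and Barhl1 were low in Bahd1-KO replicates 1 and 3 and at or above the lowest Bahd1-WT embryo in Bahd1-KO replicate 2, while Gbx2 and Zic1 were low in replicate 3 alone.

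Bahd1-KO embryos did not behave as 1 group for these genes. In Bahd1-KO replicate 1, 7 of the 10 genes were below 25% of the Bahd1-WT mean, in Bahd1-KO replicate 2 none was, and in Bahd1-KO replicate 3 it was 8. The limit of 25% was chosen after the values were seen. Ptf1a had 0 counts in Bahd1-KO replicates 1 and 3 but is left out of these counts, since its floor of 3 counts is 41.1 to 52.6% of the Bahd1-WT mean. Among all 14469 genes of at least 1 CPM in Bahd1-WT, the same limit was met by 0.954% in Bahd1-KO replicate 1, by 0.0553% in replicate 2 and by 19.5% in replicate 3. At that level stood 8 of the 10 genes, of which 6 met it in replicate 1 and 8 in replicate 3. Because the tissue was sequenced in bulk, fewer cells of the region and less RNA per cell cannot be told apart.

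The Engrailed genes, homeodomain factors of the midbrain and anterior hindbrain, were low in Bahd1-KO replicates 1 and 3. En1 stood at 1.23, 14.9 and 0.785 CPM in Bahd1-KO replicates 1, 2 and 3 and at 11.9, 9.89 and 13.6 CPM in Bahd1-WT. En2 stood at 0.713, 13.4 and 2.65 CPM in Bahd1-KO, and at 12.9, 8.30 and 14.4 CPM in Bahd1-WT. For both genes Bahd1-KO replicates 1 and 3 lay below every Bahd1-WT embryo, whereas Bahd1-KO replicate 2 lay within the Bahd1-WT range for En2 and above it for En1. What remained in Bahd1-KO replicate 1 was 10.4% of the Bahd1-WT mean for En1 and 6.01% for En2, from 76 and 44 counts. The ratio of En1 to En2 per kilobase was 2.33 in Bahd1-KO replicate 1, within the Bahd1-WT range of 1.25 to 1.61 in Bahd1-KO replicate 2 and 0.400 in Bahd1-KO replicate 3. Over all 6 embryos the log2 fold change of Bahd1-KO over Bahd1-WT was -1.06 (SE 0.947) for En1 and -0.99 (SE 0.871) for En2, neither past the threshold (adjusted p = 0.715 and 0.712, edgeR).

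The paired-box genes Pax2, Pax5 and Pax8 encode closely related factors that act in part redundantly at the isthmus. Pax5, the most abundant of them, stood at 3.99, 22.3 and 0.735 CPM in Bahd1-KO, and at 29.1, 17.2 and 20.4 CPM in Bahd1-WT. Pax2 stood at 0.162, 3.41 and 0.342 CPM in Bahd1-KO, and at 1.88, 2.33 and 1.54 CPM in Bahd1-WT. Bahd1-KO replicates 1 and 3 were the lowest embryos for both, and Bahd1-KO replicate 2 was the highest for Pax2. Of the Bahd1-WT mean, 17.9% was left for Pax5 and 8.44% for Pax2 in Bahd1-KO replicate 1, the latter from 10 counts. The log2 fold changes were -1.31 (SE 0.930, adjusted p = 0.696) for Pax5 and -0.51 (SE 0.964, adjusted p = 0.861) for Pax2 (edgeR).

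Pax8 departed from the others in Bahd1-KO replicate 3. Its levels were 0.194, 1.66 and 1.81 CPM in Bahd1-KO and 1.07, 0.711 and 1.09 CPM in Bahd1-WT. Bahd1-KO replicate 1 was the lowest embryo, at 20.4% of the Bahd1-WT mean, and Bahd1-KO replicates 2 and 3 were both above every Bahd1-WT embryo, at 174% and 190%. Its log2 fold change of 0.70 (SE 0.831, adjusted p = 0.774, edgeR) turned to -0.05 without Bahd1-KO replicate 3. In that embryo, 6 thyroid genes summed to 98.6 CPM, against 3.92 to 5.62 CPM in the other 5. Tg, the thyroid hormone precursor, reached 85.9 CPM there, against 0.153 to 0.324 CPM elsewhere. Foxe1, a defining thyroid factor, was at 0.127 CPM and at 0 in the other 5. Iyd had 395 counts, against 23 to 38. Slc5a5 was at 106% of the Bahd1-WT mean and Tshr at 41.0%, below every other embryo. The 7 kidney genes summed to 19.7 CPM, against at most 2.39 CPM elsewhere, of which Cdh16, also a thyroid gene, gave 19.2 CPM. The part of these transcripts in the Pax8 value was not tested.

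Gbx2, the homeobox gene of the hindbrain side of the boundary, was not low in Bahd1-KO replicate 1. It stood at 7.71, 8.62 and 0.329 CPM in Bahd1-KO, and at 7.27, 7.49 and 8.40 CPM in Bahd1-WT. Bahd1-KO replicate 1 was within the Bahd1-WT range, at 99.9% of its mean, and Bahd1-KO replicate 3 was at 4.27%. The ratio of Gbx2 to En1 per kilobase was 7.55, 0.700 and 0.506 in Bahd1-KO replicates 1, 2 and 3 and 0.735 to 0.913 in Bahd1-WT. The fit gave Gbx2 a value of -0.47 on the log2 scale (SE 0.834, adjusted p = 0.855, edgeR) and of 0.06 (SE 0.236) without Bahd1-KO replicate 3, so that its direction rested on that embryo.

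The proneural bHLH genes of the cerebellar primordium were rare. Atoh1, which specifies granule cell precursors, had 0, 146 and 1 counts across Bahd1-KO and 120, 76 and 82 counts across Bahd1-WT embryos, or 1.05 ± 0.227 CPM in Bahd1-WT (SD, n = 3). The 0 counts of Bahd1-KO replicate 1 allow up to 4.65% of the Bahd1-WT mean at a limit of 3 counts. The 1 count of Bahd1-KO replicate 3 gives 0.0127 CPM (exact 95% Poisson interval 0.000321 to 0.0706), and Bahd1-KO replicate 2 held the highest level of all embryos, at 183%. Ptf1a, which specifies GABAergic neurons, had 0, 5 and 0 counts across Bahd1-KO and 11, 3 and 11 across Bahd1-WT embryos. At this depth a difference in Ptf1a was not detectable. The fitted log2 fold changes, -0.73 (SE 1.56, adjusted p = 0.879) for Atoh1 and -1.89 (SE 1.21, adjusted p = 0.696) for Ptf1a, depend on the handling of embryos at 0 (edgeR).

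Barhl1 and Zic1, both genes of the granule cell lineage, differed sharply from each other. Barhl1, a homeobox gene downstream of Atoh1, stood at 1.36, 18.1 and 0.241 CPM in Bahd1-KO, and at 8.80, 13.7 and 16.0 CPM in Bahd1-WT. Zic1, a zinc finger gene with wide dorsal expression, stood at 239, 213 and 35.2 CPM in Bahd1-KO, and at 241, 204 and 243 CPM in Bahd1-WT. Bahd1-KO replicate 1 held 10.6% of the Bahd1-WT mean of Barhl1 and 104% of that of Zic1. The ratio of Zic1 to Barhl1 per kilobase was 120 in this embryo, 100 in Bahd1-KO replicate 3, 8.06 in Bahd1-KO replicate 2 and 10.2 to 18.8 in Bahd1-WT. The log2 fold changes were -0.98 (SE 1.18, adjusted p = 0.780) for Barhl1 and -0.45 (SE 0.503, adjusted p = 0.766) for Zic1 (edgeR).

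Taking the genotypes as groups, 0 of the 10 genes were past the adjusted threshold of 0.05 by the quasi-likelihood test of edgeR, and 0 had an unadjusted p under 0.05. With voom and quality weights 6 of the 10 had an unadjusted p under 0.05, as did 8.95% of all genes, and 0 an adjusted one. Of all 24739 genes tested, 0.00404% (Bahd1 alone) passed the adjusted and 4.67% the unadjusted threshold. DESeq2 gave 0 calls among the 8 of these genes for which it returned an adjusted p, against 0.0334% of all genes, and withheld it for En1 and Atoh1. The log2 fold change was below 0 for 9 of the 10, against 46.2% of all genes tested, with a median of -0.85 against 0.06 over all genes. For none of the 10 did the CPM of both genotypes fail to overlap, against 6.06% of all genes tested.

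**Figure D2:**
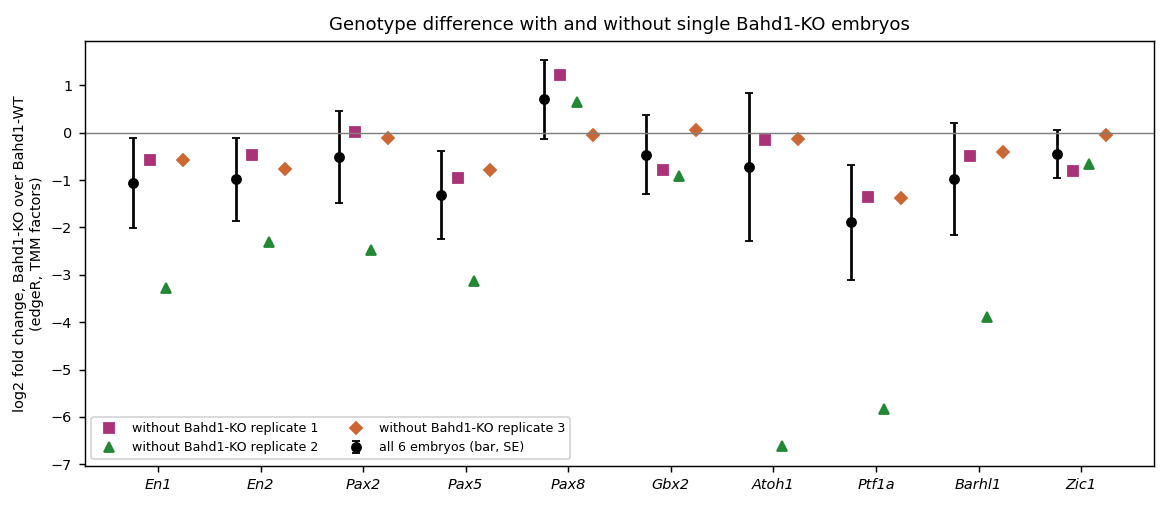
Fitted log2 fold change of Bahd1-KO over Bahd1-WT for the 10 genes, with all 6 embryos (circles, bars are SE) and with each Bahd1-KO embryo left out in turn. The median of the 10 genes was -0.85 with all embryos, -0.54 without replicate 1, -2.81 without replicate 2 and -0.28 without replicate 3.

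Without Bahd1-KO replicate 3 the median was -0.28, and 9 of 10 genes were below 0, against 50.8% of all 23334 genes tested. The signs of Pax8 and Gbx2 turned in this fit. Zic1, at -0.04 (SE 0.189), and Pax8, at -0.05 (SE 0.702), were then close to 0, while En1 (-0.57, SE 0.792), En2 (-0.77, SE 0.908), Pax5 (-0.79, SE 0.628) and Barhl1 (-0.41, SE 0.826) remained below 0 with standard errors of similar size. Pax2 (-0.12, SE 0.881), Atoh1 (-0.14) and Ptf1a (-1.39, SE 0.984) were also below 0. Without Bahd1-KO replicate 1 the median was -0.54, and Pax2 was at 0.01. Without Bahd1-KO replicate 2 the median was -2.81. In this fit 7 genes had log2 fold changes from -2.31 for En2 to -6.62 for Atoh1, each with an adjusted p of 0.235 (edgeR). The values of Atoh1 and of Ptf1a (-5.84) depended on embryos at the floor. These 7 genes had an unadjusted p under 0.05 in that fit, as did 20.2% of all genes tested. The adjusted p stayed above 0.05 for all 10 genes in each of these fits, where 0.0171% of all genes passed it without Bahd1-KO replicate 3.

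In Bahd1-KO replicate 2 each of the 10 genes lay within or above the Bahd1-WT range. This embryo exceeded every Bahd1-WT embryo for 6 of the 10 genes, En1, Pax2, Pax8, Gbx2, Atoh1 and Barhl1. Of these 6, 5 were of at least 1 CPM, against 12.4% of all genes at that level. The largest of these levels were 183% of the Bahd1-WT mean for Atoh1, 178% for Pax2 and 174% for Pax8. The smallest share was 70.8%, for Ptf1a, from 5 counts. Other transcripts set this embryo apart too. Its 6 lung genes summed to 12.4 CPM, against 0.316 to 0.515 CPM in Bahd1-WT, and Scgb1a1 among them had 511 counts, against 352 in Bahd1-KO replicate 3.

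The libraries also differed in other ways that bear on Bahd1-KO replicate 1. Of the 138 genes of at least 1 CPM that lay below 25% of the Bahd1-WT mean in that embryo, 98 (71.0%) were also below 50% of the mean of Bahd1-WT replicates 2 and 3 in Bahd1-WT replicate 1, against 7.22% of all genes at that level. The 138 genes had a median GC content of 59.6%, against 49.3%. Rpl36, a ribosomal protein gene chosen after its values were seen, had 133 counts in Bahd1-KO replicate 1 and 506, 2469 and 3115 in Bahd1-WT. None of the 8 patterning genes at that level was below 50% of the mean of Bahd1-WT replicates 2 and 3 in Bahd1-WT replicate 1. Barhl1 was the lowest against that mean, at 8.80 CPM, where Bahd1-WT replicates 2 and 3 had 13.7 and 16.0 CPM. The longest transcripts of the 10 genes had GC contents of 45.7% (Zic1) to 62.2% (Pax2). Of the 8 genes at that level, Pax2 with 62.2% GC was at 8.44% of the Bahd1-WT mean in Bahd1-KO replicate 1, Barhl1 with 60.6% at 10.6%, Gbx2 with 59.4% at 99.9%, En1 with 57.5% at 10.4%, En2 with 56.0% at 6.01%, Atoh1 with 53.1% at 0 counts, Pax5 with 50.6% at 17.9% and Zic1 with 45.7% at 104%. The part of GC content in these levels was not tested.

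Genes that act with the patterning factors were followed in 3 lists, of which none had a gene past the adjusted threshold in edgeR or at an unadjusted p under 0.05. The isthmic list held 14 genes of FGF and WNT signalling and of the boundary, 5 higher and 9 lower in Bahd1-KO. Their log2 fold changes had a median of -0.31 (-0.09 without Bahd1-KO replicate 3). Dusp6, an FGF-induced phosphatase, stood at 38.8, 35.2 and 39.5 CPM in Bahd1-KO, and at 29.8, 29.8 and 34.3 CPM in Bahd1-WT, with log2 fold change 0.53 (SE 0.290, adjusted p = 0.696, edgeR), or 0.22 without Bahd1-KO replicate 3. Otx2, the midbrain determinant, was at 85.2%, 126% and 5.10% of the Bahd1-WT mean in Bahd1-KO replicates 1, 2 and 3. Fgf17, an isthmic FGF, had the largest fitted difference of this list (-1.32, SE 0.870, or -0.82 without Bahd1-KO replicate 3) on 19, 36 and 2 counts across Bahd1-KO and 28, 46 and 110 across Bahd1-WT embryos. Cnpy1, a modulator of FGF signalling at the isthmus, was the single gene of the 14 below 25% in Bahd1-KO replicate 1, at 17.8%. Fgf8 had at most 11 counts in any embryo, so that a difference was not detectable.

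The rhombic lip list held 18 genes, 3 higher and 15 lower. The median of their log2 fold changes was -0.35 over all embryos and 0.05 without Bahd1-KO replicate 3. Of the 18 genes, 7 in Bahd1-KO replicate 1 lay below and 6 above every Bahd1-WT embryo. Of all genes of at least 1 CPM, 38.2% lay below every Bahd1-WT embryo in Bahd1-KO replicate 1. The list summed to 106% of the Bahd1-WT mean in this embryo. Lhx9 was at 88.7% of the Bahd1-WT mean, Zic4, which lies head to head with Zic1, at 130%, and Zic2, of the same family, at 118%. Barhl2, a relative of Barhl1, was at 47.9% and had the largest fitted difference of the list (-0.90, SE 0.558, adjusted p = 0.696, edgeR), or -0.50 without Bahd1-KO replicate 3. Tlx3 had 0 counts in this embryo, where its Bahd1-WT counts were 4 to 14.

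The Purkinje cell and GABAergic list held 16 genes, 4 higher and 12 lower, with a median of -0.53 (-0.15 without Bahd1-KO replicate 3). Foxp2, at 107%, 99.9% and 62.8% of the Bahd1-WT mean in the Bahd1-KO embryos, and Gad1, the GABA-synthesising enzyme, at 100.1%, 101% and 40.6%, are expressed in many brain regions and were the most abundant. Lhx5, at 31.0%, 110% and 3.07%, had the largest fitted difference (-1.05, SE 0.932, adjusted p = 0.714, edgeR), or -0.51 without Bahd1-KO replicate 3. Of the 16 genes, 8 in Bahd1-KO replicate 1 lay below every Bahd1-WT embryo and none above. Of all genes of at least 1 CPM, 38.2% lay below every Bahd1-WT embryo in Bahd1-KO replicate 1. Skor2, a corepressor of Purkinje cells, was at 9.73% there, Kirrel2, an adhesion molecule of their progenitors, at 13.8%, and Pcp2, a Purkinje cell protein, had 0 counts, against 41 to 102 in Bahd1-WT. Calb1 and Rora, also genes of Purkinje cells, were at 118% and 108%, and Pcp4 and Prdm13 at 94.9% and 82.9%. All of these but Skor2 were chosen after their values were seen.

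**Figure D3:**
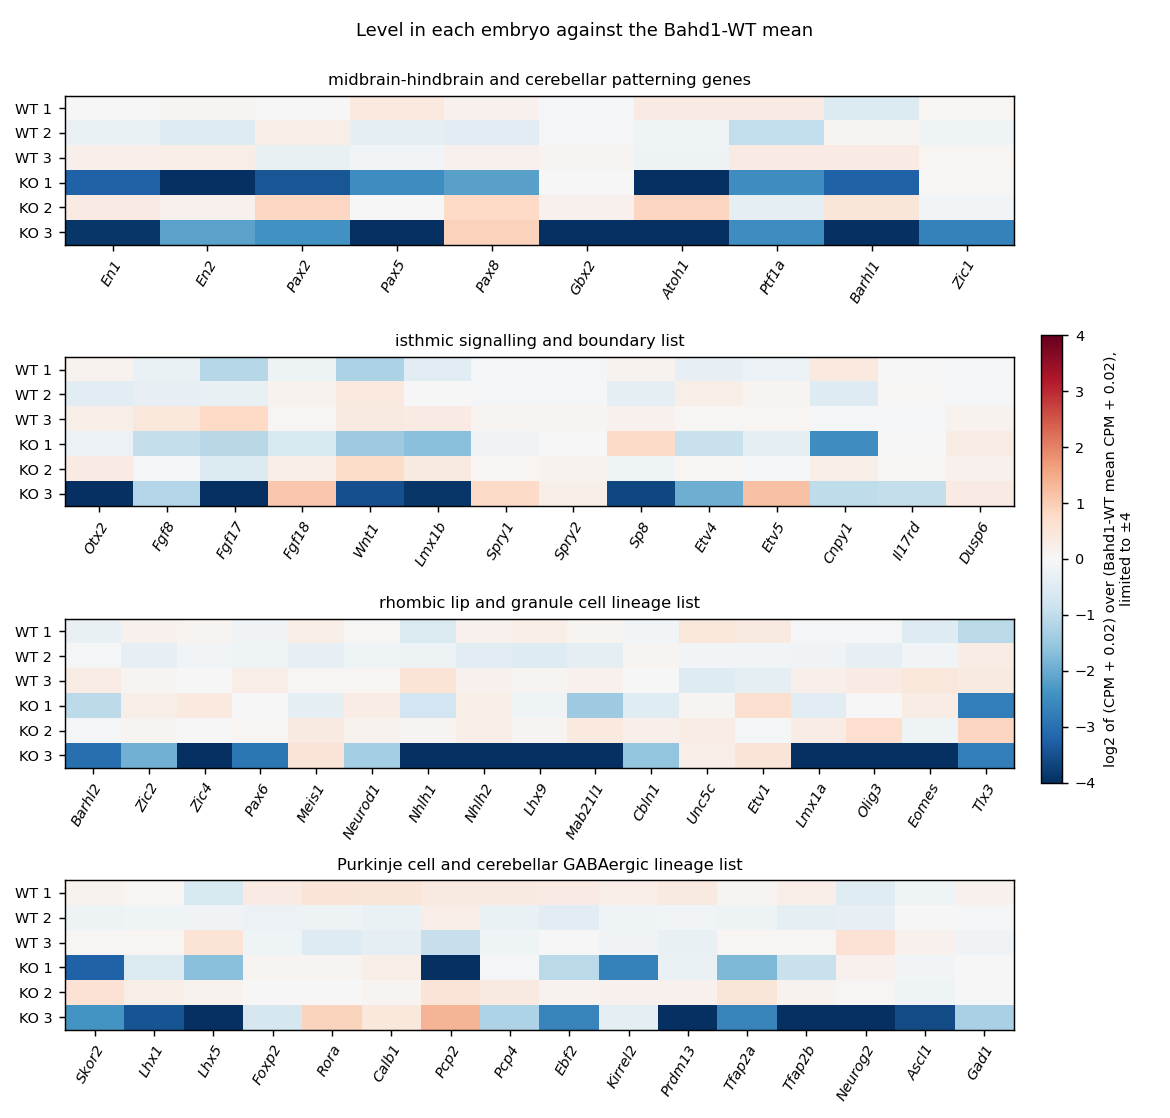
Level in each embryo (rows) of the 10 patterning genes and genes of the 3 lists (columns), as log2 of CPM + 0.02 over the Bahd1-WT mean CPM + 0.02, with colours limited to ±4. In Bahd1-KO replicate 1, 7 of the 10 patterning genes were below 25% of the Bahd1-WT mean, as were Cnpy1, Skor2, Kirrel2 and Pcp2 of the lists, with Tlx3 at 0 counts, while Zic2 and Zic4 stood at 118% and 130% of the Bahd1-WT mean. In Bahd1-KO replicate 3 they spread over much of the 3 lists.

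Lists for brain regions set the embryos side by side. In Bahd1-KO replicate 1, the 10 forebrain genes summed to 127% of the Bahd1-WT mean and 1 of them lay below every Bahd1-WT embryo. The 10 midbrain genes, which include En1 and Lmx1b, summed to 44.8% in this embryo and 9 of them lay below every Bahd1-WT embryo, where 38.2% of all genes of at least 1 CPM did so. Neurod6 and Tbr1 of the forebrain list were at 148% and 121%, and Emx1, with the largest fitted difference (-1.19, SE 0.900, or -0.68 without Bahd1-KO replicate 3), at 32.3%. Of the midbrain list, Pou4f1 was at 66.4% and Foxa1 at 96.4%, and Foxa2, with the largest fitted difference of that list (2.57, SE 1.15, or -0.02 without Bahd1-KO replicate 3), was at 57.9% in Bahd1-KO replicate 1 and at 1004% in Bahd1-KO replicate 3. The median log2 fold change was -0.55 for the forebrain list and -0.67 for the midbrain list, and -0.07 and -0.20 without Bahd1-KO replicate 3. No gene of either list passed the adjusted threshold in edgeR, nor did any have an unadjusted p under 0.05.

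The hindbrain list, mostly Hox genes expressed behind the cerebellum, moved differently. Of its 13 genes 12 were tested, 10 higher and 2 lower. Their log2 fold changes had a median of 3.95 (1.90 without Bahd1-KO replicate 3). An unadjusted p under 0.05 was reached by 5, against 4.67% of all genes tested, and 0 passed the adjusted threshold (edgeR). These 5, Hoxb2, Hoxa3, Hoxa4, Hoxb4 and Hoxa5, were all highest in Bahd1-KO replicate 3, with 337 (Hoxa4) to 1825 (Hoxa5) counts. In Bahd1-KO replicate 1, 7 of the 13 genes had 0 counts. In Bahd1-KO replicate 2, 11 of the 13 lay above every Bahd1-WT embryo, where 12.4% of all genes of at least 1 CPM did so. Hoxa5 had 1, 37 and 1825 counts across Bahd1-KO and 10, 0 and 6 across Bahd1-WT embryos, with a log2 fold change of 7.65 (SE 2.59), or 2.06 without Bahd1-KO replicate 3. Bahd1-WT replicate 2 had 0 counts for 5 of the 13 genes, of which Hoxd4 had 0 in every embryo. The others, Hoxd3, Hoxa4, Hoxc4 and Hoxa5, had at most 15 counts in the other Bahd1-WT embryos. In Bahd1-WT replicate 2 the En1 level was 83.8% and the En2 level 70.0% of the Bahd1-WT mean.

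**Figure D4:**
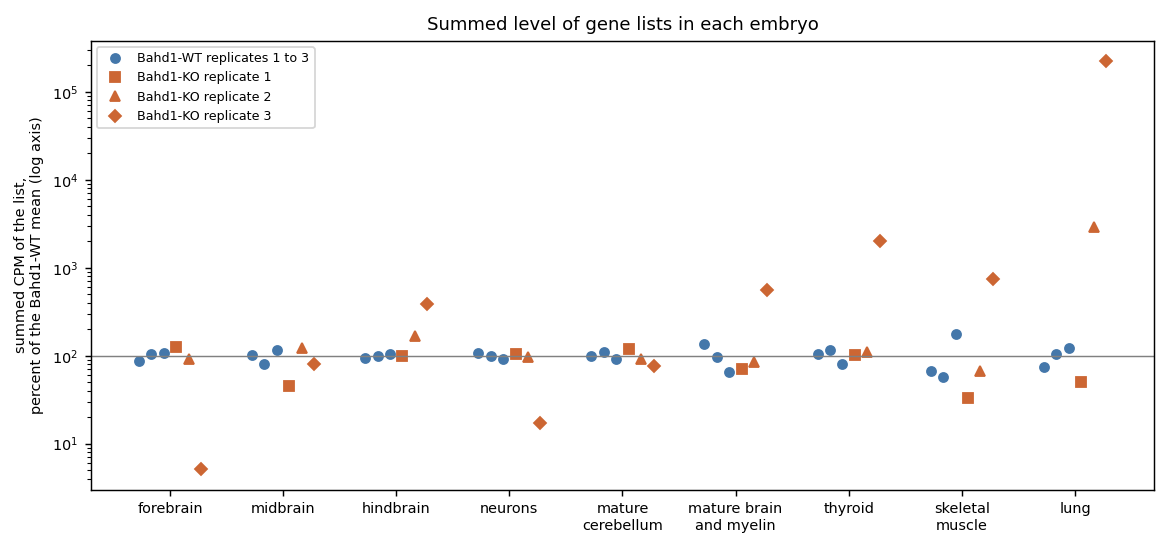
Summed CPM of gene lists in each embryo, as percent of the Bahd1-WT mean on a log axis. Bahd1-KO replicate 1 was at 44.8% for the midbrain and 127% for the forebrain list, and Bahd1-KO replicate 3 was at 5.12% for forebrain, 17.3% for neurons, 755% for skeletal muscle and 2028% for thyroid.

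In Bahd1-KO replicate 3 the region lists went apart. Their summed levels were 5.12% of the Bahd1-WT mean for forebrain, 80.6% for midbrain and 388% for hindbrain. Of the 69.1 CPM of the midbrain list, Foxa1 gave 42.2 CPM and Foxa2 14.9 CPM. Among its 10 genes, 6 were below 25% of the Bahd1-WT mean, against 19.5% of all genes of at least 1 CPM. The list had 2 genes above every Bahd1-WT embryo. The patterning genes other than Pax8 stood between 1.21% (Atoh1, from 1 count) and 22.3% (En2) in this embryo, Ptf1a at 0 counts aside. Of 8 genes of mature cerebellum, 5 lay above and 3 below every Bahd1-WT embryo there, and the list summed to 75.5% of the Bahd1-WT mean. The 3 below were Zbtb18 at 15.6%, Grm4 at 41.15% and Rgs8 at 46.8%. Gabra6 and Cbln3 are genes of mature granule cells. Gabra6 reached 29.4 CPM there, against 0.0392 to 2.11 CPM in the other 5 embryos, and Cbln3 reached 64.9 CPM, against a Bahd1-WT mean of 2.46 CPM.

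Genes with the most similar profile were sought among 14731 genes, by Pearson correlation of log2 levels with the mean profile of the 10 genes. Over 6 embryos they were Tfap2a (r = 0.995), Astn2 (0.988), Evx2 (0.987), Tceal6 (0.984) and Hsd11b2 (0.982). Tfap2a, a gene of cerebellar GABAergic progenitors, had 111, 665 and 76 counts across Bahd1-KO and 625, 441 and 597 across Bahd1-WT embryos. Evx2 had 7, 263 and 9 counts across Bahd1-KO and 327, 117 and 283 across Bahd1-WT embryos. Over the 5 embryos without Bahd1-KO replicate 3 the closest were Dbh (0.999), Syp (0.999), Skor2 (0.998), Syt13 (0.998) and Nptx1 (0.997). Dbh, the enzyme that makes noradrenaline, had 2, 200 and 40 counts across Bahd1-KO and 170, 110 and 168 across Bahd1-WT embryos. Embryos share library depth and composition across genes, and such values describe these 6 libraries.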

How the data were processed

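The authors purified polyadenylated RNA, prepared stranded TruSeq libraries and sequenced single-end reads of 65 bases. Per the submitters' processing notes and the methods of the study, reads were trimmed with cutadapt 1.11, aligned to GRCm38 with STAR 2.5.0a (TopHat2 is also named) and counted over exons in stranded mode with featureCounts 1.4.6-p3. The deposited values were raw counts, unfiltered and not normalized, in 1 column per embryo, and groups came from the sample titles. Counts are also given as CPM, per 1e6 counts of the embryo.

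Genes with at least 10 counts in sum were tested with the two-sided quasi-likelihood test of edgeR 4.0.16 (R 4.3.3) (TMM factors, genotype the only term), Benjamini-Hochberg adjusted over all 24739 genes. DESeq2 1.42.0, the study's tool, and limma 3.58.1 (voom) were alternatives, besides other filters, factors, a replicate block and each embryo left out. The script was tested on simulated counts. GENCODE M21 of GRCm38 matched 99.66% of genes and gave exon lengths and positions, and no word of 65 bases of any of the 10 genes occurred in another gene. Exons of Pax5, Pax8, Gbx2, Ptf1a and Zic1 overlap a gene on the opposite strand. Those partners held 0 to 35 counts per embryo, apart from Zic4, which shares 60 bases with Zic1. The strand setting was checked only through these counts. Nothing states that embryos came from separate litters, so p-values measure the spread between these samples.

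The genes and lists were chosen with earlier results of these data known. Named were Bahd1, the 10 genes, list genes past the threshold, the 2 most abundant and the 1 most different gene of each pathway and region list, and the 5 genes most similar in profile. Others were chosen after their values were seen. Some genes of these lists are not reported here. Pairing by replicate number was examined by the correlation of deviations from genotype means, which cannot decide it. No label states a pairing, and the embryos were not taken as paired. Intervals and floors cover counting error only.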

Additional observations from a re-analysis of the deposited data

How the results depend on the processing

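In 20 alternative settings none of the 10 genes passed the adjusted threshold in any of 197 values, and 0 genes of the 3 pathway lists did. At an unadjusted p under 0.05 stood 6 of the 10 with voom and quality weights (2213 of all genes), where their median was -1.75 and all 10 were lower, 7 without Bahd1-KO replicate 2 (4878), 1 without Bahd1-KO replicate 1 (2451), and none under any further setting. The sign turned in 8 of the 197. Pax8 moved to -0.67 with voom and quality weights, -0.050 without Bahd1-KO replicate 3 and -0.076 with DESeq2 without that embryo. Gbx2 moved to 0.061 without Bahd1-KO replicate 3 and 0.059 with DESeq2 without it, and Pax2 to 0.014 without Bahd1-KO replicate 1. With 1 embryo left out, Pax2 ran from -2.48 to 0.014, Pax8 from -0.050 to 1.23 and Gbx2 from -0.92 to 0.061. The number of genes called over the whole table was 1, and 0 with at least 10 counts in every embryo (452 at an unadjusted p under 0.05), which removes Bahd1, with neuronal scaling (2827) and with ribosomal, mitochondrial and small RNA genes left out (1055). DESeq2 called 8, the edgeR likelihood ratio test 6, voom 6 and DESeq2 without Bahd1-KO replicate 3 called 11. The fits that each left out 1 embryo called 0 to 4 (154 to 4878 at an unadjusted p under 0.05), with 4 without Bahd1-KO replicate 3, and moved the median of the 10 genes from -2.81 to -0.28 and that of the isthmic list from -0.63 to -0.092. The isthmic median was -0.057 with at least 10 counts in every embryo and 0.27 with neuronal scaling, which moved the median of all genes to 0.89. Except where noted, the cause was not tested.

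Deviations of same-numbered embryos correlated at 0.31, 0.37 and -0.13, and of different numbers at -0.54 to 0.41. Deviations from a mean of 3 embryos are tied to each other, so these values cannot decide whether the numbers pair the embryos. A fit with the replicate block gave 0 calls (517 genes at an unadjusted p under 0.05), and the median of the 10 genes was -1.93 and that of the isthmic list -0.67. Leaving out Bahd1-KO replicate 3 from the blocked fit gave 16 calls, none of them among the 10, Pax8 was at -0.39 and Gbx2 at 0.10. This fit had 2171 genes at an unadjusted p under 0.05, against 345 genes and 4 calls in the same 5 embryos without the block (edgeR). Depth limits Ptf1a, with at most 11 counts, and Atoh1 in Bahd1-KO replicates 1 and 3.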

Other observations

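The genes that were lowest in Bahd1-KO replicate 1 were of several kinds. Among 11763 genes of at least 5 CPM in Bahd1-WT, ordered by their share of the Bahd1-WT mean in that embryo from the lowest, En2 ranked 6, En1 9, Barhl1 10 and Pax5 21, whereas Gbx2 ranked 6294 and Zic1 6810. This ranking, and the genes named from it, were chosen after the values were seen. Slc6a2, the noradrenaline transporter of the locus coeruleus, ranked 3, with 4, 590 and 142 counts across Bahd1-KO and 717, 334 and 422 across Bahd1-WT embryos. Slc6a4, the serotonin transporter of the raphe nuclei, ranked 15, with 77, 703 and 145 counts across Bahd1-KO and 829, 655 and 601 across Bahd1-WT embryos. Irx1, a homeobox gene expressed in midbrain and hindbrain, ranked 13, with 64, 769 and 466 counts across Bahd1-KO and 388, 830 and 872 across Bahd1-WT embryos. Rpl36 (rank 7), Uqcr11 (14) and Timm13 (16), genes of ribosome and mitochondrion, were among the same lowest genes. They were also lower in Bahd1-WT replicate 1 than in the other Bahd1-WT embryos, as was Irx1, with 388 counts against 830 and 872. Slc6a2 and Slc6a4 were instead highest there among the Bahd1-WT embryos.

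Other tissues that express single patterning genes were checked by their markers in Bahd1-KO replicate 1. In Bahd1-KO replicate 1, inner ear genes, where Pax2 and Pax8 act, summed to 8.94 CPM, against 13.4 to 19.7 CPM in Bahd1-WT, B cell genes, where Pax5 acts, to 0.405 CPM, against 0.403 to 0.789 CPM, and retina genes to 42.7 CPM, against 53.1 to 69.2 CPM. The part of these in the patterning genes was not tested.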
